A study of Mus musculus with 9 samples.

Results

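The genes described here are 4 matrix metalloproteinases (Mmp2, Mmp3, Mmp9 and Mmp14), 2 ADAMTS proteases (Adamts1 and Adamts4) and the 4 tissue inhibitors of metalloproteinases (Timp1 to Timp4). They were chosen by gene symbol, and all 10 were found among the 48587 genes listed. Their mRNA was measured by RNAseq in retinas of C57BL/6J mice 12 weeks old. In RVO eyes the large veins were closed by a laser after an injection of eosin Y (200 mg/kg), a dye that sensitizes tissue to light. The fellow eyes, here called control eyes, were given equally many laser spots of 50 mW, placed between the large vessels, so both laser groups shared the dye and the laser wounds. Untreated eyes came from mice that were not laser-treated, and the sources used here do not state whether they received the dye. Each group had 3 samples, every sample pooled 6 retinas, and the laser groups were sampled at d2. A pool averages its mice, and RVO and control pools came from the same mice.

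Matrix metalloproteinases are zinc-dependent proteases that cut collagens, laminins and other matrix proteins. Most are made as inactive precursors, so that an mRNA level is not a measure of protease activity. ADAMTS proteases are secreted relatives that cut the large proteoglycans, and TIMPs block the active site of these enzymes. In the retina, gelatinases such as Mmp9 are known from breakdown of the blood-retina barrier, and Timp3 is a matrix-bound inhibitor made by the pigment epithelium.

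Total counts per sample were 12377572 to 15245869 in untreated eyes and 18897218 to 28993921 in laser-treated eyes. Levels of a gene are given as CPM, the usual depth-scaled count, after scaling of the libraries by edgeR's TMM method, and levels of different genes are compared only as CPM per kb of exon. Groups were compared with edgeR's quasi-likelihood test, and genes with a Benjamini-Hochberg (BH) adjusted p under 0.01 over all tested genes were called. Summed CPM of 7 rod markers was 84811 to 86548 in untreated eyes, 54340 to 66194 in control eyes and 44145 to 48220 in RVO eyes. Summed CPM of 7 lens markers ranged from 3.00 to 24.1 in untreated eyes but from 177 to 5273 in laser-treated eyes, with the highest value in RVO replicate 2. In pools of whole retina, fewer cells of a type and less RNA per cell cannot be told apart.

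The 250 bases before the transcription start are shown for Mmp3, Timp1 and Adamts1, the 3 genes with the largest rises in RVO over untreated eyes. They are from RefSeq promoters of the mouse build GRCm38.p6, written 5′ to 3′ on the strand of the gene. Capitals mark AP-1 motifs (TGANTCA) and hypoxia response elements (ACGTG or GCGTG), searched on both strands.
Mmp3, chr9:7445572-7445821, plus strand: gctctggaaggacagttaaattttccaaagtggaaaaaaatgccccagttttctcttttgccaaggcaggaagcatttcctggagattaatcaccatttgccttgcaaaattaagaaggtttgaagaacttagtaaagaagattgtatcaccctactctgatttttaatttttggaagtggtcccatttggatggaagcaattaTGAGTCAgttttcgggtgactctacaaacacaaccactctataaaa
Timp1, chrX:20869916-20870165, plus strand: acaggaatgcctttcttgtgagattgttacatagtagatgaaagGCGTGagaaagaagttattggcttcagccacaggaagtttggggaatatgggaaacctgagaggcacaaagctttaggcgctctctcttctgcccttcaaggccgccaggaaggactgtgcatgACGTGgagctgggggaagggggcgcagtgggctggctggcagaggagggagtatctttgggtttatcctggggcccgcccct
Adamts1, chr16:85803114-85803363, minus strand: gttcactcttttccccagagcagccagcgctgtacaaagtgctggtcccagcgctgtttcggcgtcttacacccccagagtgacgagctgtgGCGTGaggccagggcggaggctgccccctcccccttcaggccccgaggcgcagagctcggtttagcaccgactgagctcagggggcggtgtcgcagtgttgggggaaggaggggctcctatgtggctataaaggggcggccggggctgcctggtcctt
A RefSeq promoter was matched for 7 of the 10 genes, all but Mmp2, Mmp9 and Adamts4. The AP-1 motif was found in 1 of the 7, Mmp3, at 46 to 40 bases before the start, and in 6.75% of all 32851 promoters. Hypoxia response elements were found in 5 of the 7 (Timp1, Timp2, Timp3, Mmp14 and Adamts1) and in 38.6% of all promoters. A loose kappa B motif of 10 bases was found in 4 of the 7 (Timp1, Timp3, Timp4 and Adamts1) and in 45.8% of all promoters. A STAT motif (TTCNNNGAA) was found in 0 of the 7 and in 7.02% of all promoters.

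Most of these genes were higher in laser-treated than in untreated eyes. Between RVO and untreated eyes, 7 of the 9 genes that passed the filter for low counts were called, all higher, where 52.1% of all tested genes were called and 27.4% were called higher. Between control and untreated eyes all 9 were called, 8 higher and 1 (Timp3) lower, where 52.4% of all tested genes were called, 27.2% higher and 25.2% lower. The pools did not overlap for 7 of the 9 genes between RVO and untreated eyes (73.4% of all tested genes) and for all 9 between control and untreated eyes (70% of all tested genes). The median log2 fold change of the 9 genes was 1.83 in RVO eyes and 1.21 in control eyes, and that of all tested genes was 0.01 in both. Timp4 did not pass the filter in these comparisons. Mmp3 and Timp1, with at most 3 counts in every untreated pool, passed it only through the laser-treated pools where they are high. These 2 genes could thus only be called higher, and they are part of the counts and medians above. Both comparisons used the same untreated pools.

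**Figure D1:**
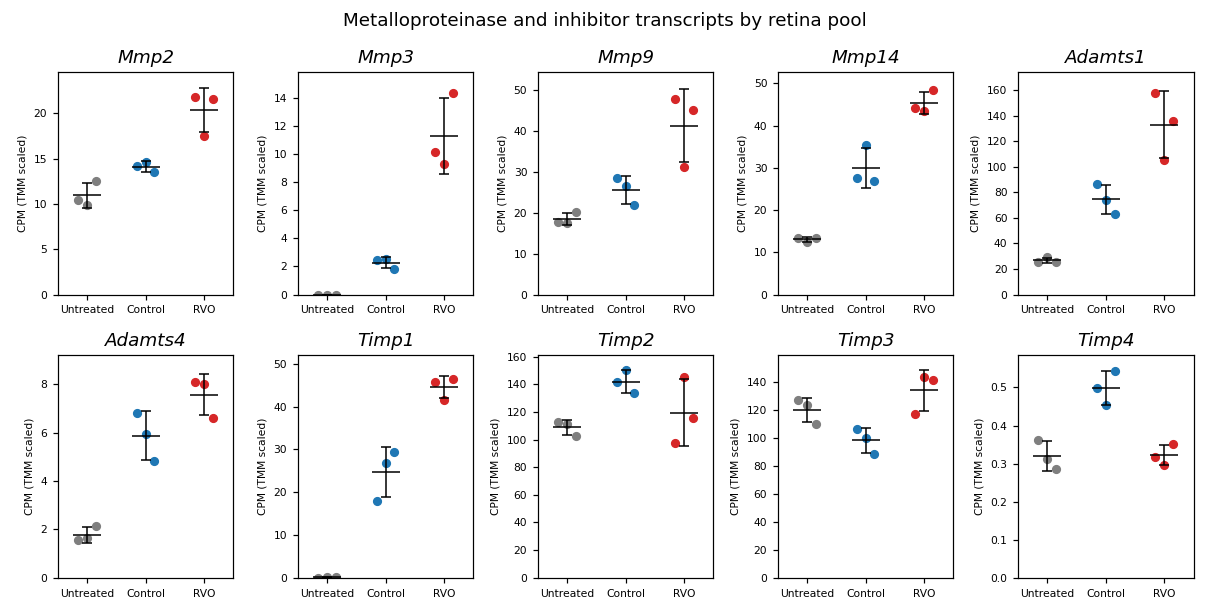
Levels of the 10 genes (CPM, linear axes from 0) in the 3 pools of untreated, control and RVO eyes. Each point is a pool of 6 retinas, and bars give the mean and SD. Pools of the 3 groups form separate steps for Mmp2, Mmp3, Mmp9, Mmp14, Adamts1 and Timp1, whereas those of Timp2 overlap between RVO and the other groups.

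Mmp3 (chr9:7445822-7455975 in GRCm38, plus strand), stromelysin-1, cuts many matrix proteins and can activate other metalloproteinase precursors. Its counts were 0 in all 3 untreated pools, 55, 50 and 43 in control pools and 319, 219 and 327 in RVO pools. These counts correspond to 2.49, 2.53 and 1.80 CPM in control eyes and to 10.2, 9.30 and 14.4 CPM in RVO eyes. The lowest RVO pool was thus above the highest control pool. Against a floor of 3 counts per untreated library, Mmp3 was at least 46.9-fold higher in RVO eyes (edgeR, BH-adjusted p = 3.98e-05) and at least 9.45-fold higher in control eyes (edgeR, BH-adjusted p = 3.75e-06).

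Mmp14 (chr14:54431612-54445364, plus strand) is a membrane-anchored protease that activates the Mmp2 precursor. Its levels were 13.4, 12.3 and 13.4 CPM in untreated, 27.5, 35.5 and 26.9 CPM in control and 44.2, 43.4 and 48.4 CPM in RVO pools. No pool of one group reached the range of another. Mmp14 was 2.32-fold higher in control eyes (log2 fold change 1.21 ± 0.12 SE, edgeR, BH-adjusted p = 2.44e-06) and 3.54-fold higher in RVO eyes (1.83 ± 0.09 SE, edgeR, BH-adjusted p = 4.71e-06) than in untreated eyes.

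Mmp2 (chr8:92827291-92853420, plus strand) and Mmp9 (chr2:164940780-164955850, plus strand) are the gelatinases, which cut denatured collagen and collagen IV of basement membranes. Mmp9 was present before injury, at 17.7, 17.4 and 20.2 CPM in untreated pools, with 28.4, 26.6 and 21.8 CPM in control and 47.7, 31.2 and 45.0 CPM in RVO pools. It was 1.40-fold higher in control eyes (edgeR, BH-adjusted p = 0.00186) and 2.29-fold higher in RVO eyes (edgeR, BH-adjusted p = 0.000415). Mmp2 showed the smallest rise of the 4 metalloproteinases, from 10.95 ± 1.36 CPM in untreated to 14.1 ± 0.592 CPM in control and 20.3 ± 2.42 CPM in RVO eyes (SD, n = 3). Its log2 fold change was 0.38 ± 0.11 SE in control eyes (edgeR, BH-adjusted p = 0.00946) and 0.92 ± 0.14 SE in RVO eyes (edgeR, BH-adjusted p = 0.000650). The groups of pools did not overlap for either gelatinase.

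Adamts1 (chr16:85793827-85803113, minus strand) and Adamts4 (chr1:171250421-171260637, plus strand) cut versican, brevican and related proteoglycans, and Adamts1 is also known as an inhibitor of angiogenesis. Adamts1 was at 25.8, 29.1 and 25.9 CPM in untreated, 86.5, 73.7 and 63.4 CPM in control and 158, 105 and 135 CPM in RVO pools. It was 2.80-fold higher in control eyes (log2 fold change 1.49 ± 0.10 SE, edgeR, BH-adjusted p = 2.26e-07) and 5.05-fold higher in RVO eyes (2.34 ± 0.15 SE, edgeR, BH-adjusted p = 1.40e-05). Adamts4 had lower counts, with 1.54, 1.64 and 2.14 CPM in untreated, 6.83, 5.96 and 4.81 CPM in control and 8.09, 8.03 and 6.60 CPM in RVO pools. It was 3.30-fold higher in control eyes (edgeR, BH-adjusted p = 1.27e-05) and 4.32-fold higher in RVO eyes (edgeR, BH-adjusted p = 6.45e-05), and its RVO and control pools overlapped.

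Timp1 (chrX:20870166-20874735, plus strand), a secreted inhibitor known to be inducible by cytokines, was close to undetected before injury. Its counts were 0, 3 and 3 in untreated, 399, 529 and 702 in control and 1434, 980 and 1056 in RVO pools. In CPM this was 0, 0.234 and 0.214 in untreated, 18.04, 26.7 and 29.4 in control and 45.7, 41.6 and 46.4 in RVO eyes. The 3 groups did not overlap, and the untreated pools were far below both laser groups. From the summed counts, Timp1 was 156-fold higher in control eyes (95% counting interval 71.6 to 426) and 282-fold higher in RVO eyes (129 to 768) than in untreated eyes, with BH-adjusted p of 3.22e-08 and 1.38e-06 in edgeR. These intervals cover counting error only. Timp1 lies within Syn1 on the opposite strand but shares 0 exon bases with it.

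The other TIMPs changed little or in different ways. Timp2 (chr11:118301069-118355740, minus strand), which inhibits metalloproteinases and also helps Mmp14 to activate Mmp2, was at 113, 111 and 102 CPM in untreated, 141, 151 and 134 CPM in control and 97.3, 145 and 116 CPM in RVO pools. It was called higher in control eyes (1.32-fold, edgeR, BH-adjusted p = 9.16e-05), whereas RVO pools spread over both other groups and gave a log2 fold change of 0.16 with a 95% interval from -0.14 to 0.47 against untreated eyes. Timp3 (chr10:86300372-86349506, plus strand) was at 127, 123 and 110 CPM in untreated, 106, 100 and 88.4 CPM in control and 117, 143 and 142 CPM in RVO pools. It was called lower in control eyes (1.21-fold, edgeR, BH-adjusted p = 0.00564), and its change in RVO eyes was 0.19 on the log2 scale with a 95% interval from -0.03 to 0.41. Timp3 lies within Syn3 on the opposite strand, and 1733 of its 8144 exon bases are shared. The use of strand in counting is not given in the sources used here, so its level is uncertain. Syn3 itself, at 6.21 CPM in untreated and 3.65 CPM in RVO eyes, had fewer counts than Timp3. Timp4 (chr6:115241892-115252205, minus strand) had 4 counts in each untreated pool, 11, 9 and 13 in control and 10, 7 and 8 in RVO pools. The ratios of its summed counts to untreated eyes were 1.58 in control eyes (95% counting interval 0.795 to 3.36) and 1.01 in RVO eyes (0.491 to 2.22), so that no difference was detectable at this depth.

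The smaller differences between control and untreated eyes depended on the processing. With trends with GC content and gene length removed, the calls of Mmp2, Mmp9, Timp2 and Timp3 ended, at log2 fold changes of 0.01, 0.13, 0.14 and -0.08. With libraries scaled by their size only, which moved the median over all tested genes from 0.01 to 0.19 on the log2 scale, Timp3 was at -0.10 in control eyes (edgeR, BH-adjusted p = 0.274). Timp3 was then at 0.40 in RVO eyes (edgeR, BH-adjusted p = 0.00451), where the median of all genes was 0.22, and removal of the GC and length trends also gave a call there (0.45, edgeR, BH-adjusted p = 0.00258).

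The comparison of RVO with control eyes asks what vein occlusion adds to the laser wounds. Mmp3 was the only one of the 10 genes called, 4.98-fold higher in RVO eyes (log2 fold change 2.32 ± 0.23 SE, edgeR, BH-adjusted p = 0.00601), where 3.34% of all tested genes were called and 2.7% were called higher. This test took the pools as independent, although RVO and control pools came from the same mice. The sources used here do not state which pools share mice, and same-numbered pools did not deviate together (r of -0.19, -0.18 and 0.11). A block by replicate number therefore models no known pairing. With this block, 0 of the 10 genes were called, and 0 of all 16874 tested genes. At a BH-adjusted p under 0.05, 7 of the 10 passed with the block. Unadjusted, 8 of the 10 were under 0.05 with it, where 42.8% of all tested genes were. In the main fit, 34.6% of all tested genes passed a BH-adjusted p under 0.05, and 17.5% were higher. Of the 10 genes, 7 passed there, all higher, which were Mmp3 and a further 6. The further 6 were Timp1 (1.81-fold, edgeR, BH-adjusted p = 0.0132), Adamts1 (1.79-fold, BH-adjusted p = 0.0134), Mmp9 (1.62-fold, BH-adjusted p = 0.0232), Mmp14 (1.52-fold, BH-adjusted p = 0.0132), Mmp2 (1.45-fold, BH-adjusted p = 0.0151) and Timp3 (1.37-fold, BH-adjusted p = 0.0175). The pools of RVO and control eyes did not overlap for 8 of the 10 genes, the exceptions being Timp2 and Adamts4, where 52.5% of all tested genes did not overlap. The median log2 fold change of the 10 genes was 0.57, against 0.02 for all tested genes.

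The remaining 3 genes did not pass either threshold. Adamts4 had a log2 fold change of 0.37 with a 95% interval from -0.03 to 0.78 (edgeR, BH-adjusted p = 0.130). Timp2 was at -0.25 with an interval from -0.57 to 0.07 (edgeR, BH-adjusted p = 0.194). Timp4 was at 0.642 of its control level by summed counts, with a counting interval from 0.366 to 1.11.

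**Figure D2:**
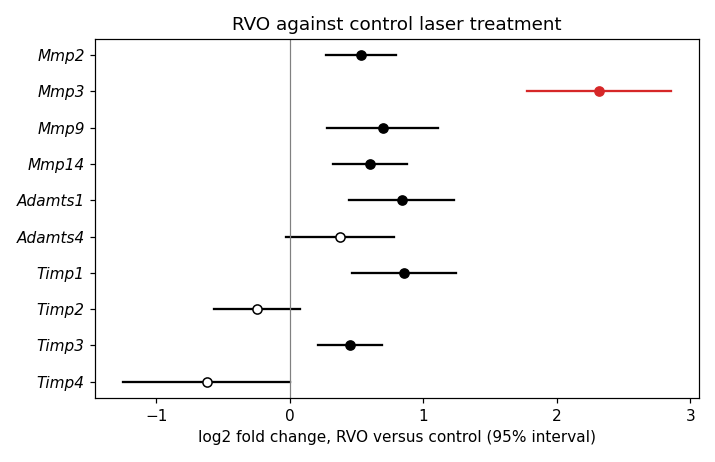
Log2 fold changes between RVO and control eyes for the 10 genes, with 95% intervals of the edgeR fit (x axis). The red point passed an adjusted p of 0.01, filled black points passed 0.05, and open points passed neither. Mmp3 stands at 2.32, and the 6 filled black points lie between 0.45 and 0.85.

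Individual pools weighed on this comparison. RVO replicate 2, the pool with the most lens RNA, was the lowest RVO pool for 7 of the 10 genes. Control replicate 3 was the lowest control pool for 8 of the 10. Control replicate 1, which had the most lens RNA of the control pools (2799 CPM), was the lowest for 1. Without RVO replicate 2, 8 of the 10 genes were called, where 36.4% of all tested genes were called. Of these 8, 7 were higher and Timp2 was lower (log2 fold change -0.43, edgeR, BH-adjusted p = 0.00246). Without any other single RVO or control pool, 0 of the 10 were called in edgeR, and at most 29 of all tested genes were called, so that few calls were made in the whole table. In these fits 7 or 8 of the 10 had an unadjusted p under 0.05, against 35.4% to 40.0% of all tested genes, and the log2 fold change of Mmp3 was between 2.09 and 2.42 whichever pool was left out. DESeq2 on all pools called 7 of the 10, where it called 23.9% of all tested genes.

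The make-up of the TIMP transcripts differed between groups. The summed level of the 4 TIMPs was 42.9 ± 2.41 CPM per kb in untreated, 76.4 ± 5.97 in control and 97.4 ± 5.74 in RVO eyes (SD, n = 3). Timp1 made up 0%, 0.600% and 0.601% of this sum in untreated, 29.2%, 37.1% and 42.2% in control and 56.6%, 46.1% and 52.6% in RVO pools. Every RVO pool thus had a larger Timp1 share than every control pool. The share of Timp2 was 65.1% ± 0.377 in untreated, 47.8% ± 4.11 in control and 31.3% ± 4.74 in RVO eyes, and that of Timp3 was 34.3% ± 0.609, 15.9% ± 2.50 and 16.9% ± 0.888. With the longest transcript of each gene as its length, the Timp3 share was 46.2% in untreated, 24.0% in control and 25.5% in RVO eyes. Timp4 stayed below 0.2% in each group mean. Since shares add up to the whole, the smaller shares of Timp2 and Timp3 do not mean lower levels.

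**Figure D3:**
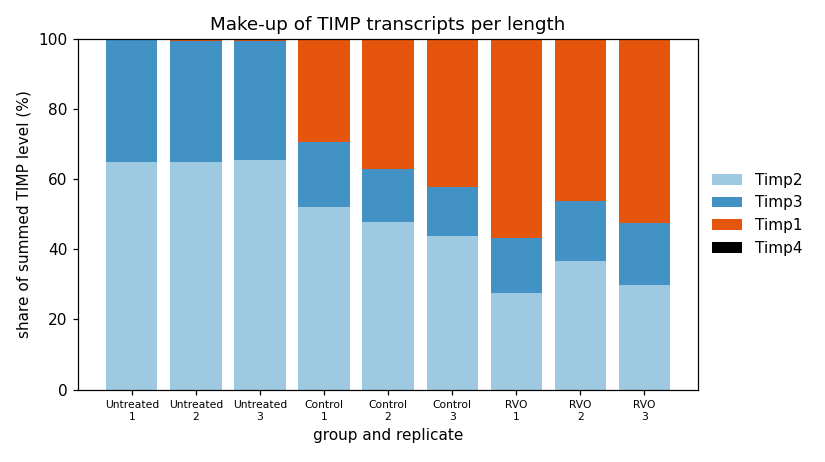
Share of each TIMP in the summed TIMP level (CPM per kb, y axis in %) for each pool of untreated, control and RVO eyes. Timp1 rises from at most 0.601% in untreated pools to between 46.1% and 56.6% in RVO pools, and the Timp4 share is too small to be seen.

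Per length of exon, the order of the 10 genes changed with injury. In untreated eyes the highest level was that of Timp2 (27.9 CPM per kb), followed by Timp3 (14.7), Mmp9 (5.21), Adamts1 (5.08), Mmp2 (3.25), Mmp14 (2.19), Adamts4 (0.369), Timp1 (0.168) and Timp4 (0.0544), with Mmp3 at 0. In control eyes the order was Timp2 (36.4), Timp1 (27.8), Adamts1 (14.1), Timp3 (12.1), Mmp9 (7.24), Mmp14 (5.03), Mmp2 (4.18), Mmp3 (1.26), Adamts4 (1.22) and Timp4 (0.0846). In RVO eyes it was Timp1 (50.2), Timp2 (30.7), Adamts1 (25.1), Timp3 (16.5), Mmp9 (11.7), Mmp14 (7.61), Mmp3 (6.26), Mmp2 (6.03), Adamts4 (1.57) and Timp4 (0.0547). These levels rest on all annotated exons. With the length of the longest transcript, Timp3 stood above Adamts1 in RVO (28.4 against 27.2) and in control eyes (20.8 against 15.3), and Mmp14 stood above Mmp9 in both (14.0 against 13.0, and 9.26 against 8.07). In untreated eyes Mmp14 then stood above Mmp2 (4.04 against 3.56), and the pairs Mmp2 and Mmp3 in RVO and Adamts4 and Mmp3 in control eyes also changed places. Over all exons, neighbours whose pools overlapped were Mmp9 with Adamts1 and Timp1 with Timp4 in untreated eyes. In control eyes these were Adamts1 with Timp3 and Mmp3 with Adamts4, and in RVO eyes Timp2 with Adamts1, Mmp14 with Mmp3 and Mmp3 with Mmp2.

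Cell markers also differed between the groups, in both directions. Summed CPM of 8 neutrophil markers was 0.547 to 1.21 in untreated, 7.95 to 24.1 in control and 45.3 to 101 in RVO pools, and Elane was at 0 in untreated and RVO eyes. Neutrophils store Mmp8 and Mmp9 protein, and Cxcr2 and Mpo were also at 0 in untreated eyes. Summed CPM of 6 monocyte and macrophage markers was 8.13 to 10.5, 36.4 to 50.3 and 91.6 to 106, with Ly6c2 at 0 in untreated eyes. Fibroblasts, a usual source of Mmp2, Mmp3, Mmp14 and Timp1, had 6 markers that summed to at most 11.7 CPM in untreated, 17.7 to 28.2 CPM in control and 45.3 to 56.4 CPM in RVO pools. Of the tested markers, 4 of 4 for neutrophils, 5 of 6 for monocytes and macrophages and 4 of 5 for fibroblasts were called higher in RVO than in untreated eyes, where 27.4% of all tested genes were. Only 4 of the 8 neutrophil markers were tested. Cxcr2, S100a8, S100a9, Ccr2 and Ly6c2 had at most 3 counts in every untreated pool. They passed the filter only through the laser-treated pools where they are high, so they could only be called higher. Summed CPM of 5 microglia markers went the other way, with 41.8 to 70.6 in untreated, 19.3 to 22.0 in control and 5.51 to 14.5 in RVO pools. For 6 Mueller cell markers the sums were 4331 to 4579 CPM, 2676 to 3299 CPM and 1524 to 2288 CPM in the same order of groups. Endothelial markers (6 genes) summed to 149 to 154, 289 to 322 and 135 to 246 CPM. This sum was highest in control pools but rested mostly on Kdr, with means of 128, 254 and 148 CPM. Of the 6 endothelial genes, 2 had a positive log2 fold change between RVO and control eyes. Markers of pericytes and smooth muscle (6 genes) summed to 94.4 to 110, 103 to 121 and 64.7 to 136 CPM, those of pigment epithelium (7 genes) to 514 to 568, 446 to 517 and 350 to 670 CPM, and those of astrocytes (4 genes) to 37.3 to 45.9, 79.5 to 116 and 106 to 139 CPM. The astrocyte sum rested mostly on Aldh1l1, with means of 13.5, 69.9 and 104 CPM. Against untreated eyes, 1 of the 4 astrocyte genes was called in RVO eyes, and S100b and Pdgfra had negative log2 fold changes (-0.95 and -0.27). The part of any of these cells in the levels of the 10 genes was not tested.

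The genes whose pattern over the 9 pools was most like that of Timp1, by Pearson's r of log2(CPM + 0.1), were Mroh1 and Ddah2 (both 0.998), Zfp316 (0.997), Plekhh3 (0.996) and Fam109a (0.996). Those most like Mmp3 were Rnaseh2a, Fosb and Fam129b (each 0.997), Pf4 (0.996) and Gadd45b (0.996). This r takes no account of the size of a change, and Timp1 and Mmp3 were at or near 0 in untreated eyes. Rnaseh2a, ranked first for Mmp3, was at only 12.6 CPM in untreated, 18.6 CPM in control and 22.8 CPM in RVO eyes. Mroh1, ranked first for Timp1, was at 52.1, 95.1 and 104 CPM in the same order. Fosb, a subunit of AP-1, was at 2.65 CPM in untreated, 16.6 CPM in control and 36.1 CPM in RVO eyes. Pf4, a platelet chemokine, was at 0, 1.41 and 5.82 CPM, and Gadd45b, a stress-response gene, at 4.21, 45.8 and 119 CPM. These coefficients are a description over 9 pools out of 14974 genes.

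Other metalloproteinases also differed from untreated eyes. Against untreated eyes, 8 of 9 tested other MMPs were called higher in control eyes and 1 lower, and 4 of 10 were called higher in RVO eyes. Of all tested genes, 27.2% were called higher and 25.2% lower in control eyes, and 27.4% were called higher in RVO eyes. Mmp12, macrophage elastase, was at 0.362 CPM in untreated, 1.85 CPM in control and 6.38 CPM in RVO eyes, a log2 fold change of 2.31 ± 0.36 SE in control and 4.12 ± 0.29 SE in RVO eyes. It was also called between RVO and control eyes (1.79 ± 0.18 SE, edgeR, BH-adjusted p = 0.00601), the only other MMP that was. Mmp8, neutrophil collagenase, had 0 counts in untreated pools, 24, 11 and 6 in control and 129, 33 and 51 in RVO pools. This put RVO eyes at least 10.8-fold above untreated eyes. Mmp8 is 1 of the 10 tested in RVO eyes. It passed the filter there only through the RVO pools where it is high, so it could only be called higher. Mmp19 rose in RVO eyes (2.27 ± 0.28 SE), Mmp28 rose in control eyes (1.66 ± 0.35 SE), and Mmp16 fell in control eyes (-0.57 ± 0.17 SE). With the GC and length trends removed, only 3 of the 9 other MMPs were called in control eyes, all higher, where 37.9% of all tested genes were called. Mmp28 and Mmp16 were not among the 3 (1.15 and -0.14). In RVO eyes 4 other MMPs were then higher and 2 lower, where 44.7% of all tested genes were called.

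The membrane-type enzymes other than Mmp14 were chosen for description after their values were seen, and they did not move as one. Mmp16 is given above, and Mmp25 had means of 0.0303 CPM in untreated, 0.174 CPM in control and 0.526 CPM in RVO eyes, with 1 count in all untreated pools together. Mmp15, Mmp17 and Mmp24 were called higher in control than in untreated eyes, at 1.45-fold, 1.33-fold and 1.36-fold. In RVO eyes the latter's log2 fold changes against untreated eyes were -0.28, -0.32 and -0.49 and were not called. Against control eyes they were at -0.83, -0.75 and -0.95 (edgeR, BH-adjusted p = 0.0133, 0.0202 and 0.0199), past 0.05 but not 0.01. With the GC and length trends removed, Mmp15, Mmp17 and Mmp24 were at -0.01, 0.07 and -0.06 in control against untreated eyes and were not called, and Mmp15 and Mmp24 were called lower in RVO than in untreated eyes (-0.70 and -0.94).

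Of the other ADAMTS genes, 14 were tested against untreated eyes, of which 3 rose and 2 fell in RVO eyes, and 4 rose and 1 fell in control eyes. Among all tested genes 52.1% were called in RVO and 52.4% in control eyes. Adamts7 and Adamts9 rose in both (log2 fold changes 2.25 and 1.42 in RVO, 1.30 and 1.27 in control eyes), Adamts20 and Adamts6 fell in RVO eyes (-1.70 and -1.49), and Adamts16 fell in control eyes (-0.89). Without the GC and length trends, Adamts6 in RVO eyes (-0.86) and Adamts7 in control eyes (0.85) were not called. Adamts14, which processes procollagen, had 1 count in all untreated pools together, 12 in control and 88 in RVO pools. In RVO against untreated eyes it passed the filter only through the RVO pools where it is high, so it could only be called higher. Adamts14 was the only one called between RVO and control eyes (2.57 ± 0.38 SE, edgeR, BH-adjusted p = 0.00928). The median log2 fold change of this list was -0.24 in RVO and 0.20 in control eyes, so that Adamts1 and Adamts4 did not share its direction in RVO eyes.

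Activators, receptors and other inhibitors of these proteases moved in both directions. In RVO eyes all 16 tested genes were called against untreated eyes, 10 higher and 6 lower, and in control eyes 8 were higher and 3 lower. Of all tested genes, 52.1% and 52.4% were called. With the GC and length trends removed, 9 were higher and 6 lower in RVO eyes, and 8 higher and 7 lower in control eyes. Of all tested genes, 44.7% and 37.9% were then called. Plau, the urokinase that starts plasmin formation, and A2m, a protease inhibitor of broad range, rose most in RVO eyes (4.64 ± 0.48 SE and 4.61 ± 0.14 SE). In control eyes they rose by 2.94 ± 0.47 SE and 3.11 ± 0.17 SE. Spock3, a proteoglycan of the testican family, fell in RVO and in control eyes (-2.37 and -1.14), Pcsk6, a convertase that activates precursors, fell in RVO eyes (-1.87), and Reck, a membrane-bound inhibitor of metalloproteinases, fell in control eyes (-0.70). Between RVO and control eyes, 5 were called higher and 0 lower in edgeR, but 9 higher and 5 lower at an adjusted p under 0.05 and 8 higher and 5 lower with DESeq2. The shares of all tested genes were 3.34%, 34.6% and 23.9% in turn. The largest differences among the 5 were those of A2m (1.49 ± 0.20 SE, edgeR, BH-adjusted p = 0.00860) and Plat, the tissue plasminogen activator (1.39 ± 0.22 SE, edgeR, BH-adjusted p = 0.00989).

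The matrix substrates differed by kind. Of 13 basement membrane genes, 9 were called higher and 0 lower in RVO eyes, and 8 higher and 0 lower in control eyes. Among all tested genes 27.4% were called higher in RVO and 27.2% in control eyes. Hspg2, which encodes perlecan, and Col4a1, a collagen IV chain, rose most (log2 fold changes 2.66 and 2.23 in RVO, 2.15 and 1.74 in control eyes). Lama5 and Lamc1, laminin chains, were called higher in RVO than in control eyes (0.60 ± 0.09 SE and 0.44 ± 0.07 SE, both with an edgeR BH-adjusted p of 0.00928). Of 8 tested genes of the proteoglycan matrix, which includes link proteins and tenascins, 1 was called higher (Tnc, 0.98) and 3 lower in RVO eyes. In control eyes 1 was higher (Ncan, 0.52) and 2 lower. Versican (Vcan) and brevican (Bcan), which Adamts1 and Adamts4 cut, were not among those called in RVO eyes. Of all tested genes, 52.1% were called in RVO and 52.4% in control eyes. Hapln1, a link protein, fell by 3.58 in RVO and by 1.73 in control eyes on the log2 scale, and Tnr, tenascin-R, fell by 1.87 and by 0.66. Without the GC and length trends, Tnr in RVO eyes (-1.38) and Ncan in control eyes (0.24) were not called, but Vcan was called higher (1.02) and Bcan lower (-0.96) in RVO eyes. The counts of the proteoglycan matrix were then 2 higher and 3 lower in RVO eyes and 0 higher and 3 lower in control eyes.

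**Figure D4:**
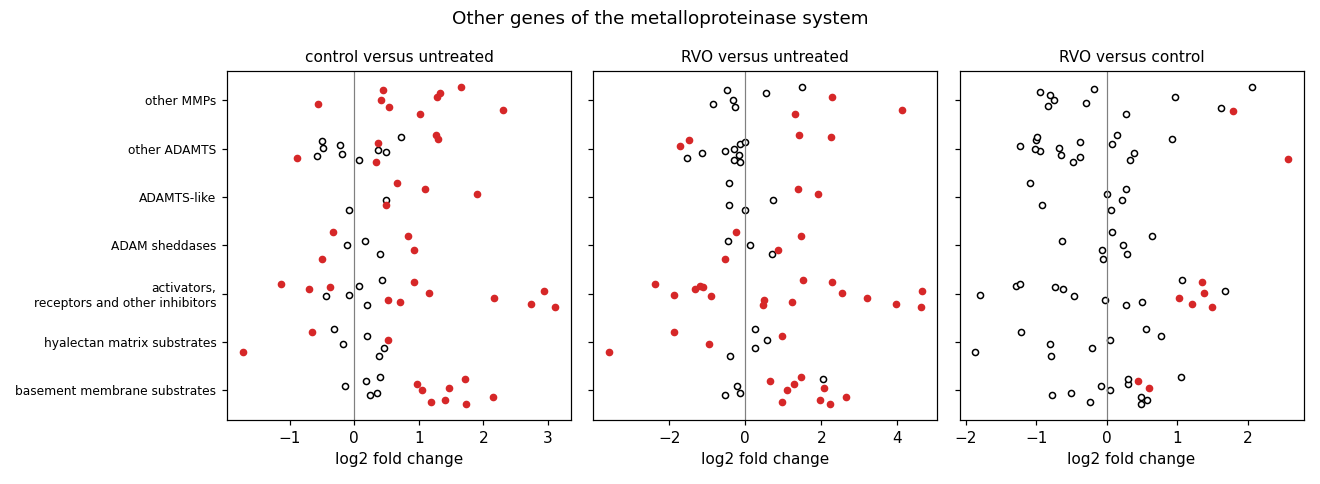
Log2 fold changes (x axis) of the other genes of the metalloproteinase system, by list, in the 3 comparisons. Red points were called at an adjusted p under 0.01 and open points were not, and genes with at most 3 counts in every pool of a group are left out. In RVO against control eyes 9 of the 77 genes tested were called, all higher, while DESeq2 called 19 higher and 12 lower. Of all tested genes, edgeR called 3.34% and DESeq2 23.9% there.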

How the data were processed

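RNAseq was done on 9 pools of 6 retinas. The authors mapped reads with STAR 2.5.2b (Gencode vM11 annotation), counted them per gene with featureCounts (Subread 1.5.1) and deposited raw counts without normalization. How reads shared by genes were handled is not given in the sources used here. The number of columns not used was 0. Groups were taken from the labels. Counts were filtered with filterByExpr, scaled by TMM and tested with the quasi-likelihood test (R 4.3.3, edgeR 4.0.16), in a separate fit per pair of groups. Benjamini-Hochberg adjustment ran over all tested genes, at the threshold of 0.01 that the study used. Exon lengths and coordinates were from GENCODE vM21 (GRCm38). Replicates were separate pools and differed beyond sampling noise. The procedure was tested on simulated data. The result of 1 gene is not reported here.

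Members, lists, tests and alternatives were chosen with earlier results of these data known. All members are named, and from each list up to 2 called genes with the largest change per direction and comparison, genes at the floor of 3 counts by bound. Likeness used genes with a mean of at least 1 CPM. Alternatives were DESeq2 1.42.0, other scalings and filters, a joint fit of the 9 samples, blocking by replicate number, removal of GC content and length trends (mgcv 1.9.3) and each replicate left out.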

Additional observations from a re-analysis of the deposited data

How the results depend on the processing

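In RVO against untreated eyes, the number of the 10 genes called was 7 or 8 under every alternative run, and 7 with each replicate left out. Timp2 turned from 0.16 to -0.0907 with GC content and length trends removed, and to -0.107 with the replicate block as well, and was not called in either. In control against untreated eyes, 9 were called, and 5 in a fit of all 9 samples, 5 without GC and length trends and 5 without these trends and with the block. With a replicate left out, 6 to 9 were called. Mmp2 lost its call in 5 of 6 such fits and with DESeq2, Timp3 in 3 and Mmp9 in 2. In RVO against control eyes, 1 of the 10 genes and 9 genes of the other lists were called. These counts were 7 and 31 with DESeq2 (of the lists 19 higher and 12 lower), 7 and 27 without a filter on low counts, 7 and 28 in a fit of all 9 samples, 7 and 39 at a threshold of 0.05 (22 higher and 17 lower), and 0 to 8 and 0 to 43 with a replicate left out. For the other lists, 34 to 59 genes were called in RVO and 35 to 44 in control eyes against untreated eyes with a replicate left out, and 44 in each with all pools. With the replicate number as a block, 7 of the 10 genes were called in RVO and 8 in control against untreated eyes, and 0 and 0 were called in edgeR in RVO against control eyes, also without GC and length trends (0 and 0), where 0 of all 16874 tested genes were called either, and 8 of the 10 had an unadjusted p under 0.05 (42.8% and 44.2% of all tested genes). At a BH-adjusted p under 0.05, 7 of the 10 passed in RVO against control eyes with the block, with or without these trends. Same-numbered RVO and control pools did not deviate together (r of -0.19, -0.18 and 0.11), so the numbers were not taken to pair the pools. The sources used here do not state which pools share mice, so the main test models no pairing. With the longest transcript in place of all exons, the Timp1 share in RVO eyes was 45.6% and not 51.7%, and that of Timp3 was 25.5% and not 16.9%. The cause of these differences was not tested. Scaling by library size only moved the share of higher among called genes from 52.7% to 68.5% in RVO and from 51.9% to 70.4% in control eyes against untreated eyes. Depth limits Timp4, Mmp3 and Timp1 in untreated eyes.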

Other observations

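ADAM sheddases, which release membrane proteins and only some of which are inhibited by Timp3, moved in both directions. Of 7 tested against untreated eyes, 2 rose and 2 fell in each laser group, where 52.1% (RVO) and 52.4% (control) of all tested genes were called. Adam8 and Adam15 were higher (log2 fold changes 1.48 and 0.87 in RVO, 0.83 and 0.92 in control eyes), and Adam10 and Adam9 were lower (-0.54 and -0.24 in RVO, -0.50 and -0.32 in control eyes). With the GC and length trends removed, Adam10 and Adam9 were not called in RVO (-0.04 and -0.00350) or in control eyes (-0.08 and -0.14), nor was Adam8 in control eyes (0.49). Between RVO and control eyes, 0 of 7 were called in edgeR, where 1 was higher and 1 lower at an adjusted p under 0.05. DESeq2 called 1 of them there.

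The ADAMTS-like genes, which encode matrix proteins without a protease domain, were represented by 6 tested genes. Adamtsl4 and Adamtsl5 rose in RVO eyes (1.91 ± 0.11 SE and 1.39 ± 0.14 SE) and in control eyes (1.90 ± 0.10 SE and 1.10 ± 0.11 SE). Against untreated eyes 2 of 6 were called in RVO and 4 of 6 in control eyes, all higher. Among all tested genes 27.4% and 27.2% were called higher.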
